A study of Mus musculus with 6 samples.

Results

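The genes described here are 40 interferon-stimulated genes and immunity GTPases of the mouse, read in regulatory T (Treg) cells with and without the transcription factor gene Gata3. They were chosen by symbol as known targets of interferon, and each was represented by the brightest probe set annotated to that gene alone. Of the 40 genes 36 were measured, out of 12394 genes on the array. The other 4, Isg15, Ifi44, Xaf1 and Dtx3l, had no probe set annotated to them alone.

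Cells were sorted as CD4+CD25+YFP+ from spleen and lymph nodes, 3 mice per group by the series' design text, with 1 Affymetrix array for each sample. Mice labelled Gata3-deficient had both Gata3 alleles floxed (Gata3F/F), and mice labelled Gata3-sufficient, titled WT, had 1 floxed and 1 intact allele (Gata3F/+). Both groups carried Foxp3YFP-Cre, which places a YFP-marked Cre recombinase under the Treg cell gene Foxp3, so the comparison is between deletion of both alleles and of 1 allele in cells that all hold the recombinase. Age, sex and strain background of the mice were not given in the sources used here. The arrays are called labelled-deficient and labelled-sufficient below.

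Interferons are cytokines that switch on a large set of genes through receptors at the cell surface. Type I interferons (alpha and beta) signal through Ifnar1 and Ifnar2 and the kinases Jak1 and Tyk2 to transcription factors, Stat2 and Irf9 among them, that act on the interferon-stimulated response element (ISRE). Interferon gamma signals through Ifngr1 and Ifngr2 and the kinases Jak1 and Jak2, and its targets can carry the gamma-activated site (GAS). The first route is best known for antiviral effectors such as the Ifit, Oas and Mx proteins, and the second for the immunity-related and guanylate-binding GTPases, which act on vacuoles that hold parasites and bacteria, though many targets answer to both.

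The labels were checked on Gata3 itself. The Gata3 probe set read 9.83, 9.98 and 9.71 in the labelled-deficient arrays, against 9.57, 9.41 and 9.47 in the labelled-sufficient arrays (log2 intensity), so it was higher, not lower, where Gata3 should be deleted (limma: change of 0.35 ± 0.07, SE, with an adjusted p of 0.0387). The change stayed positive in every fit with 1 array left out, from 0.28 to 0.42. The call was lost without labelled-deficient replicate 1 or 2 or labelled-sufficient replicate 2 or 3 (adjusted p up to 0.182 by limma) and without the intensity trend (0.15). The sources used here do not say which part of Gata3 is floxed. A signal from outside the floxed part is no check of the deletion, so the directions below are those of the labels alone. Array medians lay between 6.06 and 6.11. Of the T cell markers Cd3e, Cd4, Il2ra, Ctla4 and Ikzf2 were above the 40th percentile of gene means (5.55, below which a gene is called dim here), and Foxp3 was dim. The summed intensity of the 6 T cell markers was higher in the labelled-deficient arrays, at 6012.3 to 6254.3, against 5049.0 to 5642.4 in the labelled-sufficient arrays. That sum is of unlogged values, so Ctla4, the brightest at a mean of 11.97 (log2), weighs most in it. The log2 changes of the 6 were all positive, from 0.01 (Cd3e) to 0.22 (Ctla4), and 0 passed the adjusted threshold. The summed intensity of 7 myeloid markers lay between 355.5 and 532.9 in the labelled-deficient arrays and between 285.1 and 354.0 in the labelled-sufficient arrays, and that of 5 of 6 listed neutrophil markers between 150.8 and 310.2 against 132.8 to 147.9.

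The promoters of 8 members are shown because they hold the motifs of the interferon routes described above, for antiviral genes and for GTPases. Each is the 160 bases before the RefSeq start of the gene (GRCm38.p6), 5′ to 3′ on the gene's own strand, with capitals for matches to the ISRE core and to the GAS. The ISRE core searched was TTTC, any 2 bases and TTTC, or on the other strand GAAA, any 2 bases and GAAA, and the GAS was TTCNNNGAA, which reads the same on both strands.
Ifit1, chr19:34640729-34640888, forward strand: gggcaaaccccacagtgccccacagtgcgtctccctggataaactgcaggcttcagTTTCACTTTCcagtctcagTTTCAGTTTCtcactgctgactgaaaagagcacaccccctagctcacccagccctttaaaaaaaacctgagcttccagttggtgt
Ifit3, chr19:34583369-34583528, forward strand: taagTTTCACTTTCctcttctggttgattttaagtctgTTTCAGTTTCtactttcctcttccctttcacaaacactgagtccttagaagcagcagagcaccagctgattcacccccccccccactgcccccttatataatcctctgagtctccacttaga
Rsad2, chr12:26456453-26456612, reverse strand: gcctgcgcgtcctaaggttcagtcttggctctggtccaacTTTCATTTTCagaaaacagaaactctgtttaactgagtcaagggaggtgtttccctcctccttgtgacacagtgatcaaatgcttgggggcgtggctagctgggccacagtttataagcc
Ifitm2, chr7:140955962-140956121, reverse strand: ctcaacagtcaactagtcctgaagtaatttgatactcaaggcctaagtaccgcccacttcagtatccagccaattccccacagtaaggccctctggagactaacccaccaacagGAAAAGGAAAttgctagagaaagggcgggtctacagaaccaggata
Irgm2, chr11:58214817-58214976, forward strand: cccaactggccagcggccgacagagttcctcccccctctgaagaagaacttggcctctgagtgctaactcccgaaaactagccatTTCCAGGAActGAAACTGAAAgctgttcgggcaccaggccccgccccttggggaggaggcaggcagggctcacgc
Igtp, chr11:58199396-58199555, forward strand: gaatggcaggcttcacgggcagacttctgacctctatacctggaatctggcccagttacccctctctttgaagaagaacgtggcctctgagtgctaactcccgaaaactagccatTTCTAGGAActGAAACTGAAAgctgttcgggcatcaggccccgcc
Irgm1, chr11:48871421-48871580, reverse strand: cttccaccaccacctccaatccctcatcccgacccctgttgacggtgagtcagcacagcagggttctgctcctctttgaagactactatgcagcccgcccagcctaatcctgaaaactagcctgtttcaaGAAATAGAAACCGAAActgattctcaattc
Gbp3, chr3:142559884-142560043, forward strand: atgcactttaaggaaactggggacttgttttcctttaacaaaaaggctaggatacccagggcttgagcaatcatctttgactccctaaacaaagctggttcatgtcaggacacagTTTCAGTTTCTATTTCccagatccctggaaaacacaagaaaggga
Ifit1 and Ifit3 each held 2 separate ISRE cores, and Irgm1 and Gbp3 each held 2 cores that overlap. Igtp and Irgm2, whose starts lie 15421 bases apart on chromosome 11, held a GAS and an ISRE core in the same arrangement, with 11 bases from the first base of one to the first base of the other in both genes. Aligned without gaps, 107 of 130 bases of the pair were identical (82.3%). Over the full windows of 250 bases before to 50 after the start, 15 of the 29 members in the RefSeq promoter table held the ISRE core (51.7%), against 3.99% of 27025 genes, and 9 of 29 held the GAS (31.0%), against 9.55%. Neither motif was particular to a class. The core was in 5 of 6 GTPases and 10 of 17 antiviral genes in the table, and the GAS in 2 of 6 GTPases and 6 of 17 antiviral genes. A GAS and an ISRE core in the same window were found in 5 of the 29 members (17.2%), against 0.54% of all genes in the table. Some members have several listed starts, and a gene was counted once if any of its windows held the motif.

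Among the 36 measured members 1 rose and 1 fell. Ifitm2, one of the interferon-induced transmembrane proteins that restrict virus entry, rose 1.58-fold in the labelled-deficient arrays. Irgm2, a regulatory immunity-related GTPase, fell by 0.30 on the log2 scale in the labelled-deficient arrays, a 1.23-fold difference. Over all 12394 genes 2.21% passed the same test (limma with an intensity trend, Benjamini-Hochberg adjusted p under 0.05). A count of 2 in 36 is a larger share, but too small a count to be read as a result about the members. At an unadjusted p under 0.05 there were 8 lower members, Oasl1, Ifit1, Oas2, Usp18, Irgm2, Adar, Ifit2 and Parp14, and 3 higher members, Ifitm2, Lgals3bp and Gbp3. Over all genes 5.8% were lower and 8.63% higher by that rule. The change was negative in 25 of 36 members, with a median of -0.07, while 47.0% of all genes had a negative change and their median was 0.01. The groups did not overlap in 8 members (19.8% of all genes). Values of the labelled-deficient arrays lay wholly below in 7 members and wholly above in 1, against 8.51% and 11.3% of all genes. Members share arrays and regulation, so these counts are not independent of each other, and in sorted cells in bulk fewer cells expressing a gene and less RNA per cell cannot be told apart.

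**Figure D1:**
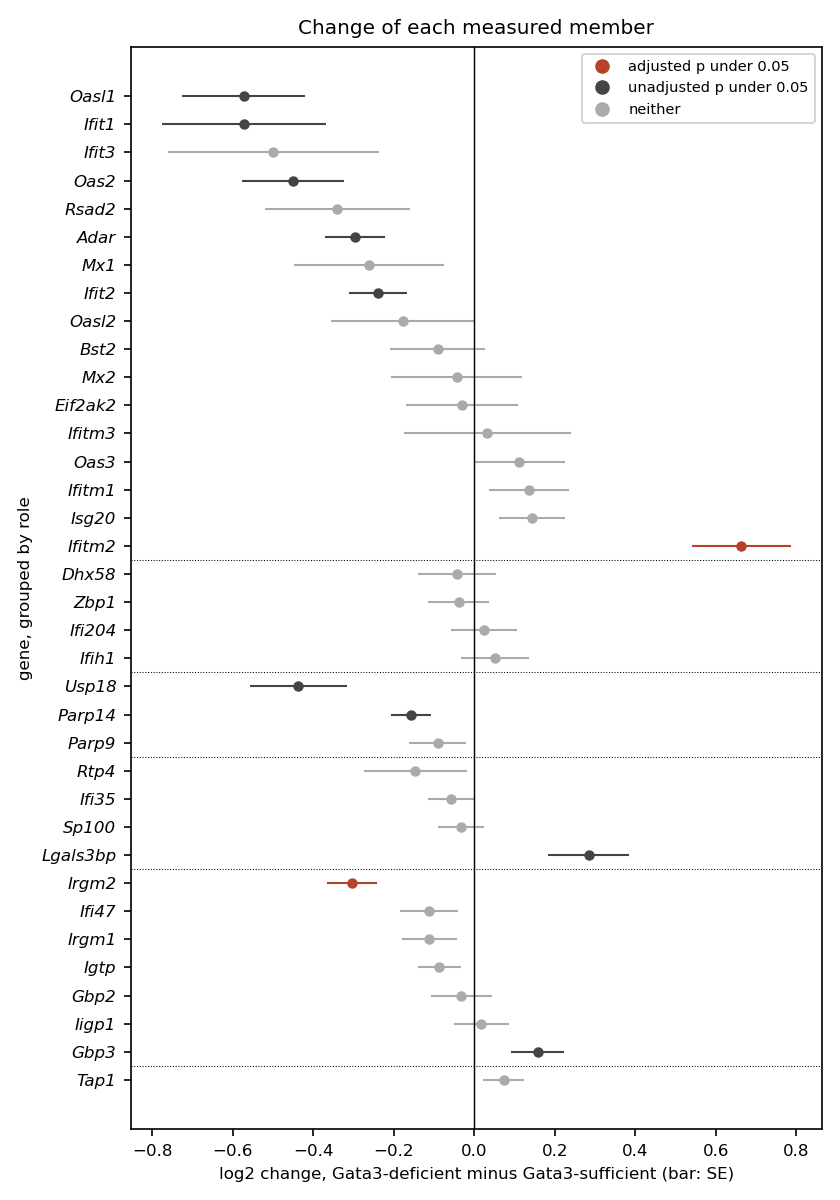
Log2 change of each measured member, labelled-deficient minus labelled-sufficient arrays (point, with a bar of 1 moderated standard error), ordered within each role from the most negative; roles run from effectors at the top to the peptide transporter Tap1. Ifitm2 at 0.66 and Irgm2 at -0.30 are the members past the adjusted threshold, and 25 of 36 points lie left of 0.

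The antiviral effectors were 17 genes, most with products that attack viral RNA, proteins or entry, though Adar and Oasl1 act otherwise, as described below. The effectors held 1 gene that rose, Ifitm2, and 0 that fell by limma's adjusted test. Their changes were negative in 12 of 17, with a median of -0.18. At an unadjusted p under 0.05 there were 5 lower and 1 higher, where 5.8% of all genes were lower and 8.63% higher. Oasl1, an oligoadenylate synthetase-like protein that holds back translation of Irf7, read 6.45, 6.61 and 6.15 in the labelled-deficient arrays, against 7.23, 7.03 and 6.67 in the labelled-sufficient arrays. All 3 labelled-deficient values lay below the labelled-sufficient ones, the closest pair being labelled-deficient replicate 2 and labelled-sufficient replicate 3. The log2 change was -0.57 ± 0.15 (SE, adjusted p = 0.0974 by limma), which did not pass. Oas2, which makes the second messenger that activates RNase L, read 6.82, 6.53 and 6.61 in the labelled-deficient arrays, against 7.34, 7.13 and 6.84, also without overlap and short of the threshold (-0.45 ± 0.13, adjusted p = 0.113 by limma). Oas3, a synthetase of the same family, had a change of 0.11 ± 0.11 (SE) with overlapping groups.

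Ifit1, which binds foreign RNA caps, had almost the same change as Oasl1 but far more spread. It read 7.89, 7.53 and 7.26 in the labelled-deficient arrays, against 8.58, 7.74 and 8.07 in the labelled-sufficient arrays (7.56 ± 0.32 and 8.13 ± 0.42, SD, n = 3 each). Labelled-deficient replicate 1 read above labelled-sufficient replicate 2, so the groups overlapped, and the change of -0.57 ± 0.20 (SE) had an adjusted p of 0.215 by limma. Ifit3, a gene of the same family, read 8.74, 8.06 and 7.76 in the labelled-deficient arrays, against 9.22, 8.32 and 8.52, with a change of -0.50 ± 0.26 (SE). Ifit2, a sister gene on the same chromosome, varied much less and did not overlap. It read 9.16, 9.14 and 9.12 in the labelled-deficient arrays, against 9.56, 9.27 and 9.31 in the labelled-sufficient arrays (-0.24 ± 0.07, SE, adjusted p = 0.138 by limma).

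Adar, the RNA-editing enzyme that keeps cellular double-stranded RNA from being read as viral, had the smallest p of the effectors with a negative change. It read 7.66, 7.74 and 7.72 in the labelled-deficient arrays, against 8.15, 7.96 and 7.89 in the labelled-sufficient arrays, with no overlap (-0.30 ± 0.07, SE, adjusted p = 0.0818 by limma). Rsad2 (viperin, an enzyme that makes a chain-terminating nucleotide) and Mx1 (a dynamin-like GTPase that blocks virus replication) had changes of -0.34 ± 0.18 and -0.26 ± 0.19 (SE), with overlapping groups. Of the 3 Rsad2 probe sets all had negative changes, between -0.36 and -0.27. The kinase Eif2ak2, the tetherin gene Bst2 and Mx2 had changes between -0.09 and -0.03, and the exonuclease Isg20 one of 0.14. Oasl2, with a change of -0.18 ± 0.18 (SE), was dim.

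All 3 Ifitm genes had positive changes, and 1 of them passed. Ifitm2 read 5.73, 6.00 and 6.07 in the labelled-deficient arrays, against 5.46, 5.17 and 5.18 in the labelled-sufficient arrays, all labelled-deficient values being the higher and all labelled-sufficient values lying below the dim cut of 5.55 (0.66 ± 0.12, SE, adjusted p = 0.0267 by limma). Ifitm3, its neighbour on chromosome 7, read 5.67, 6.10 and 6.63 in the labelled-deficient arrays, against 6.33, 5.94 and 6.04, and its change was 0.03 ± 0.21 (SE). Ifitm1 had a change of 0.14 ± 0.10 (SE). Among the labelled-deficient arrays Ifitm2 and Ifitm3 were both lowest in replicate 1 and highest in replicate 3. That order was shared by 3 of 7 myeloid markers (Lyz2, Csf1r and Tyrobp) and 3 of 5 neutrophil markers (S100a8, S100a9 and Ngp). It was found in 21.9% of all genes and in 27.7% of those that are not dim. Lyz2 read 6.55, 7.44 and 7.60 in the labelled-deficient arrays, against 6.54, 5.79 and 6.19 in the labelled-sufficient arrays. Of the 7 myeloid markers 6 had a positive change, and of the 5 neutrophil markers all had one, with medians of 0.31 and 0.64. In either list 0 genes passed the adjusted threshold. At an unadjusted p under 0.05 by limma 3 and 2 were higher, where 8.63% of all genes were. The 5 neutrophil markers and 3 of the 7 myeloid markers were dim, and the part of such cells in the Ifitm2 difference was not tested. The Ifitm2 call was lost without labelled-deficient replicate 2 (adjusted p = 0.114 by limma) or 3 (0.0943) and without labelled-sufficient replicate 2 (0.15) or 3 (0.0805).

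**Figure D2:**
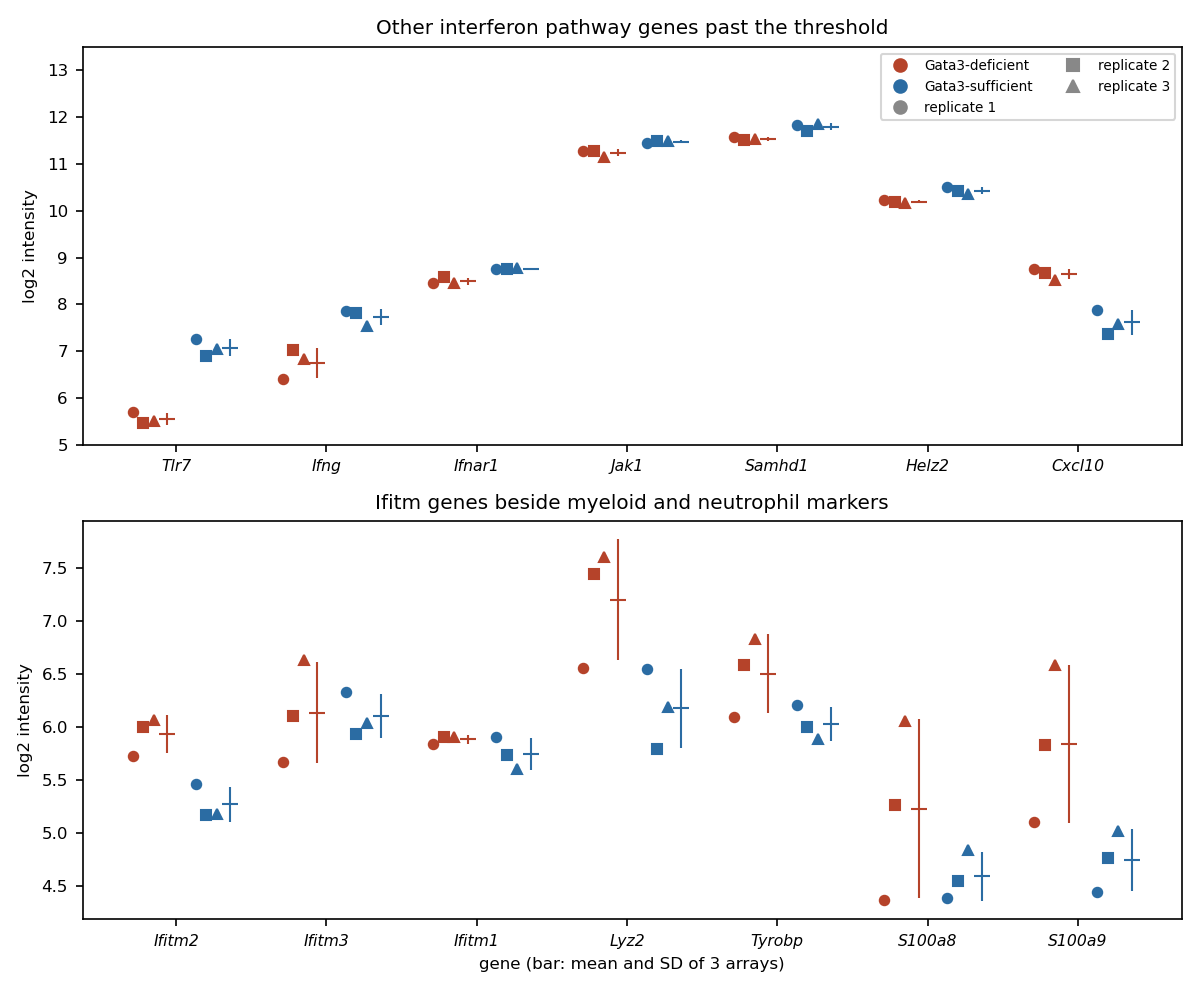
Log2 intensity on each array of interferon pathway genes outside the 40 that passed the threshold (top) and of the Ifitm genes beside markers of myeloid cells and neutrophils (bottom); labelled-deficient arrays are left of labelled-sufficient arrays for each gene, symbols mark replicates, and bars give the mean and SD of 3 arrays. Levels of different genes come from different probe sets and are not comparable with each other. On the brightest probe sets Tlr7 and Cxcl10 show the widest gaps between groups, in opposite directions, and The 4 markers shown are lowest in replicate 1 and highest in replicate 3 of the labelled-deficient arrays, as Ifitm2 and Ifitm3 are, while 4 of the 7 myeloid and 2 of the 5 neutrophil markers have another order.

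The genes of the ISG15 system and of ADP-ribosylation had negative changes in all 3 measured members, with 0 past limma's adjusted threshold. At an unadjusted p under 0.05 there were 2 lower, where 5.8% of all genes were lower. Usp18 removes the ubiquitin-like modifier Isg15 from proteins and also blocks the type I interferon receptor. It read 9.27, 9.01 and 8.82 in the labelled-deficient arrays, against 9.70, 9.33 and 9.39 in the labelled-sufficient arrays. The groups did not overlap, with labelled-deficient replicate 1 just below labelled-sufficient replicate 2 (-0.44 ± 0.12, SE, adjusted p = 0.106 by limma). Parp14, an ADP-ribosyltransferase, read 10.06, 10.03 and 9.95, against 10.20, 10.09 and 10.22, again without overlap (-0.16 ± 0.05, SE, adjusted p = 0.165 by limma). Parp9, a partner of the ubiquitin ligase Dtx3l, had a change of -0.09 ± 0.07 (SE). Isg15 shares a probe set with the predicted gene Gm9706. That probe set read 7.99, 7.72 and 7.65 in the labelled-deficient arrays, against 7.94, 7.92 and 7.87, with overlapping groups, and was not tested.

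The 4 sensors of foreign nucleic acid had changes near 0. Ifih1 (MDA5) and Dhx58 (LGP2), which detect double-stranded RNA in the cytosol, had changes of 0.05 ± 0.08 and -0.04 ± 0.10 (SE), and Zbp1, a sensor of Z-form nucleic acid, -0.04 ± 0.08 (SE). The groups overlapped in all 4. Ifi204, a DNA sensor, was dim on its own probe set, at 2.86 to 3.05 in the labelled-deficient arrays and 2.90 to 2.94 in the labelled-sufficient arrays. A brighter probe set that Ifi204 shares with Ifi205, Ifi211 and Mndal read 10.67, 10.62 and 10.47 in the labelled-deficient arrays, against 10.73, 10.87 and 10.78 in the labelled-sufficient arrays, all lower in the labelled-deficient arrays, and was not tested because it names no single gene.

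Of the remaining interferon-stimulated genes, Lgals3bp had the only positive change. Lgals3bp, a secreted galectin-binding protein, read 8.39, 8.27 and 8.13 in the labelled-deficient arrays, against 8.21, 7.84 and 7.89 in the labelled-sufficient arrays. Labelled-sufficient replicate 1 read above labelled-deficient replicate 3, and the change of 0.28 ± 0.10 (SE) did not pass (adjusted p = 0.215 by limma). Rtp4, Ifi35 and the nuclear body protein Sp100 had changes between -0.15 and -0.03, with overlapping groups. Tap1, the peptide transporter of class I antigen presentation, was nearly level, at 10.76, 10.78 and 10.79 in the labelled-deficient arrays and 10.75, 10.60 and 10.77 in the labelled-sufficient arrays (0.07 ± 0.05, SE).

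The 7 interferon gamma GTPases held 1 gene that fell, Irgm2, and 0 that rose. Their changes were negative in 5 of 7, with a median of -0.09. Irgm2 controls the effector GTPases of the same family at intracellular membranes. It read 9.35, 9.51 and 9.55 in the labelled-deficient arrays, against 9.78, 9.70 and 9.84 in the labelled-sufficient arrays. The groups did not overlap, and the change was -0.30 ± 0.06 (SE, adjusted p = 0.0402 by limma). With any 1 of the 6 arrays left out the call was lost, with adjusted p from 0.0566 (without labelled-deficient replicate 3) to 0.118 (without labelled-deficient replicate 2) and changes from -0.34 to -0.24. Igtp (Irgm3), which shares the promoter arrangement printed above, read 11.92, 11.95 and 11.96 in the labelled-deficient arrays, against 11.95, 11.98 and 12.16, with a change of -0.09 ± 0.05 (SE). Whether the changes of Irgm2 and Igtp differ was not tested.

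Irgm1, the third regulatory GTPase of the family, read 9.37, 9.34 and 9.22 in the labelled-deficient arrays, against 9.34, 9.36 and 9.56 in the labelled-sufficient arrays (-0.11 ± 0.07, SE). Ifi47, an effector GTPase, read 11.87, 12.05 and 12.10, against 12.00, 12.11 and 12.24 (-0.11 ± 0.07, SE), and the groups of both genes overlapped. Iigp1, an effector that breaks parasite vacuoles, had a change of 0.02 ± 0.07 (SE) on its brighter probe set and 0.04 on the other. Among the guanylate-binding proteins, large GTPases that coat vacuoles and bacteria, Gbp2 had a change of -0.03 ± 0.08 (SE). Gbp3 read 10.41, 10.40 and 10.32 in the labelled-deficient arrays, against 10.15, 10.13 and 10.37 in the labelled-sufficient arrays, where replicate 3 overlapped with the labelled-deficient values (0.16 ± 0.07, SE, adjusted p = 0.302 by limma). By their names the probe sets of Gbp2, Gbp3 and Iigp1 may also read other transcripts.

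**Figure D3:**
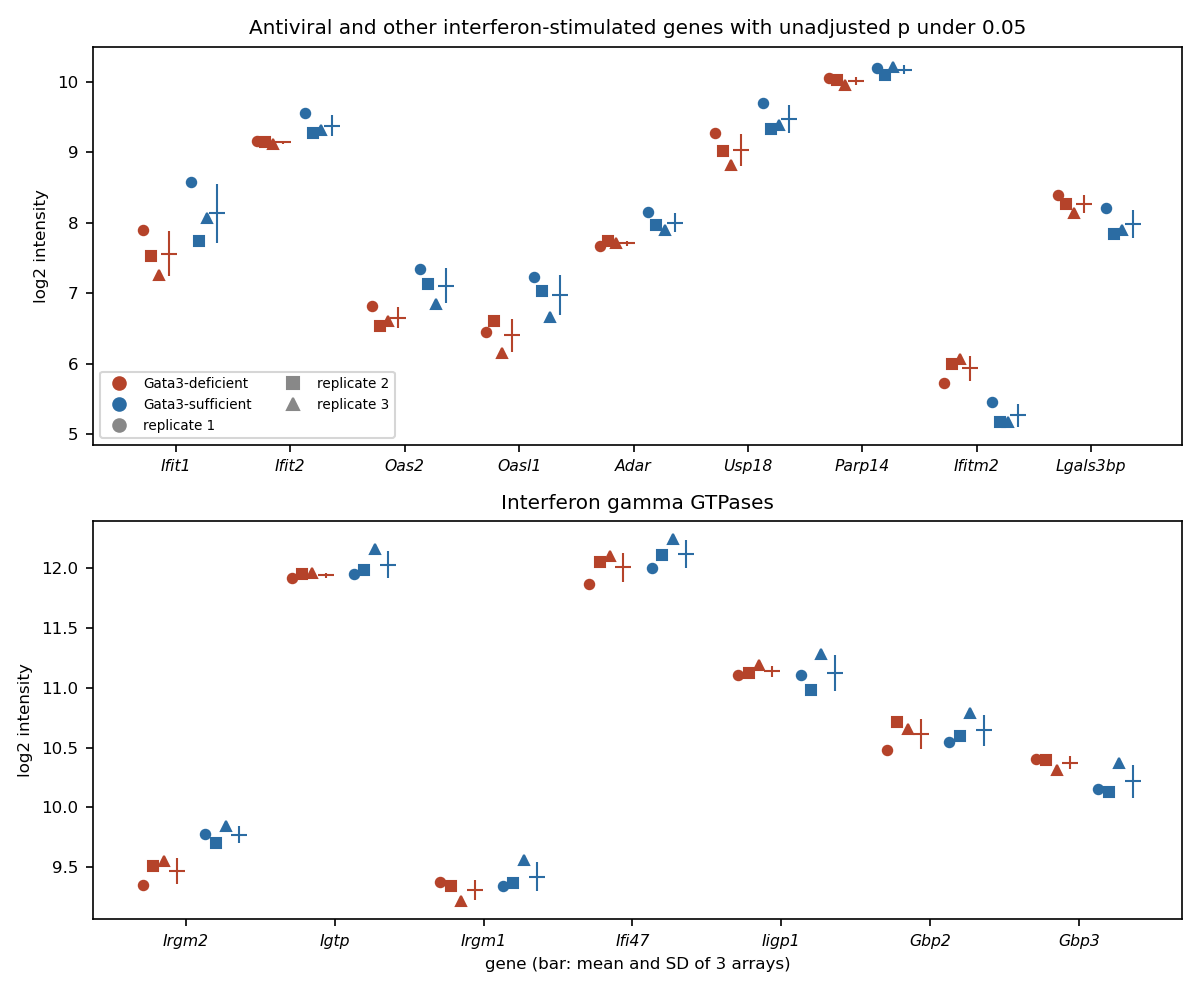
Log2 intensity on each array of 9 antiviral and other members with an unadjusted p under 0.05 (top) and of the 7 interferon gamma GTPases (bottom); labelled-deficient arrays are left of labelled-sufficient arrays for each gene, symbols mark replicates, and bars give the mean and SD of 3 arrays. Levels of different genes come from different probe sets and are not comparable with each other. In the top panel replicate 1 is often the highest of its group, and in the bottom panel labelled-sufficient replicate 3 is the highest of its group for all 7 genes.

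Within a group the antiviral genes and the GTPases followed different arrays. The 24 measured antiviral genes were the effectors, the sensors, and the ISG15 and ADP-ribosylation genes. Of these 19 were highest in replicate 1 of the labelled-sufficient arrays (79.2%, against 38.4% of all genes). In the labelled-deficient arrays 18 were highest in replicate 1 (75.0%, against 38.5%). Among genes that are not dim the shares were 38.6% and 29.5%. Replicate 1 was the highest in both groups for 13 of the 24 (54.2%, against 13.9% of all genes). None of the 7 GTPases was highest in labelled-sufficient replicate 1, and all 7 were highest in labelled-sufficient replicate 3, where 34.2% of all genes and 4 of the 24 antiviral genes had their highest value. In the labelled-deficient arrays 4 of the 7 GTPases were highest in replicate 3 (38.0% of all genes that are not dim) and 5 were lowest in replicate 1 (50.5% of those genes). The antiviral genes also spread more between samples of a group than most genes. Their median SD was 0.13 in the labelled-deficient and 0.20 in the labelled-sufficient arrays, against 0.09 and 0.09 over all genes, while the GTPases had 0.08 and 0.12. For Ifit1, Ifit3, Mx1, Rsad2 and Oasl2 the distance between the highest and lowest array of a group was thus as large as the difference between group means or larger.

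**Figure D4:**
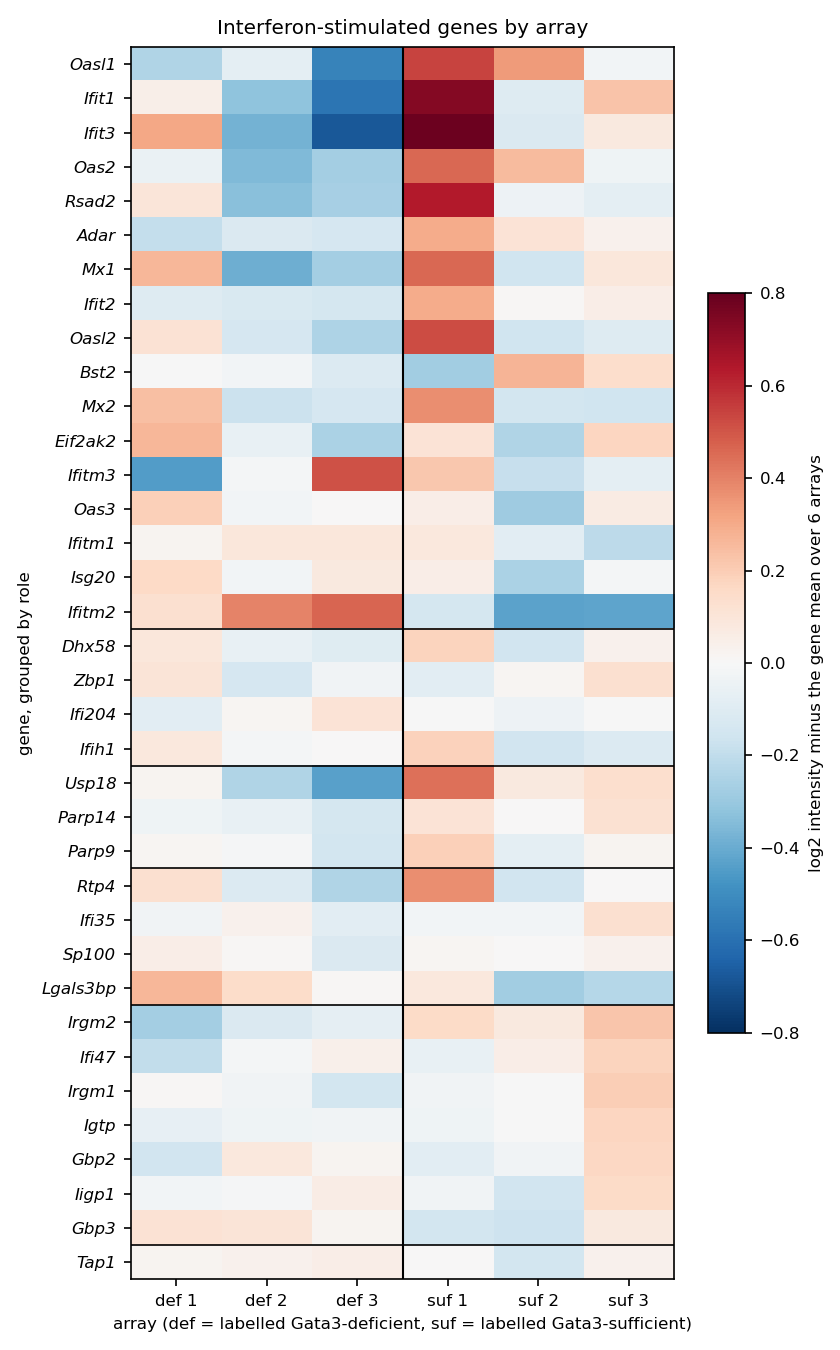
Log2 intensity of each measured member on each array minus the gene's mean over the 6 arrays (colour), with labelled-deficient arrays on the left and labelled-sufficient arrays on the right; horizontal lines separate the roles. Labelled-sufficient replicate 1 is red across most effectors, with Ifit1 and Ifit3 the strongest, and labelled-sufficient replicate 3 is red across the GTPases.

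An array score, the mean over members of the log2 intensity minus the gene's mean over the 6 arrays, put the same pattern in 1 value per sample. Over all 36 members it was 0.02, -0.07 and -0.10 in the labelled-deficient arrays, against 0.18, -0.07 and 0.03 in the labelled-sufficient arrays, and the groups overlapped. Over the antiviral genes it was 0.04, -0.11 and -0.13, against 0.26, -0.06 and 0.0034, also with overlap. Over the GTPases it was -0.08, -0.0018 and -0.01 in the labelled-deficient arrays, against -0.03, -0.03 and 0.16. The difference of group means was -0.10 for all members, -0.13 for the antiviral genes and -0.07 for the GTPases. The antiviral score minus the GTPase score was 0.13, -0.10 and -0.12 in the labelled-deficient arrays, against 0.29, -0.03 and -0.16 in the labelled-sufficient arrays. That contrast differed between groups by -0.07, less than its SD within a group (0.14 in the labelled-deficient and 0.23 in the labelled-sufficient arrays). Without labelled-sufficient replicate 1 the contrast was 0.06 and the score over all members differed by -0.03. With any other array left out the contrast lay between -0.1621 and -0.0219, and the score difference between -0.1551 and -0.071. The size of both, and the sign of the contrast, thus depended on which arrays were kept.

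**Figure D5:**
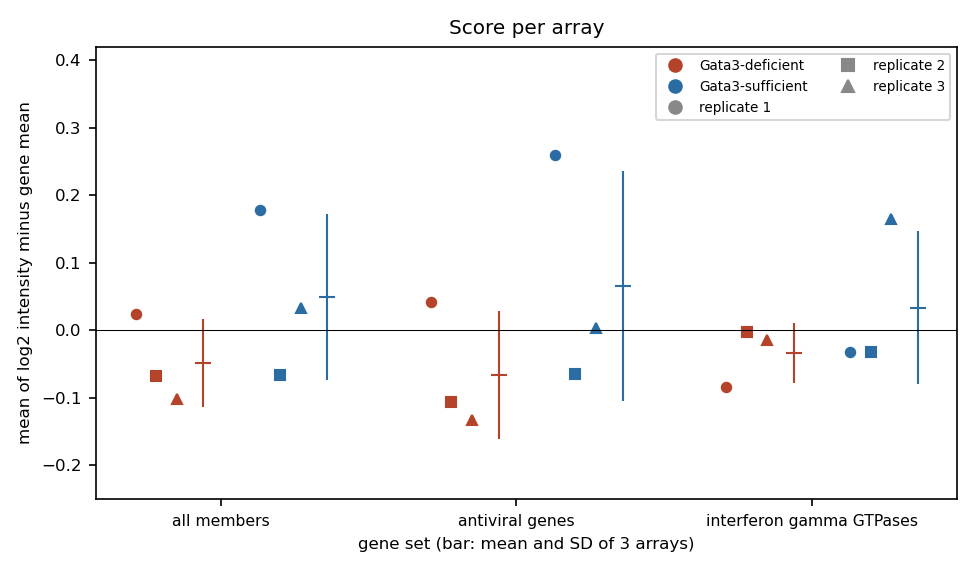
Score per array (mean of log2 intensity minus the gene mean over 6 arrays) for all 36 members, the 24 antiviral genes and the 7 interferon gamma GTPases; labelled-deficient arrays are left of labelled-sufficient arrays, symbols mark replicates, and bars give the mean and SD of 3 arrays. The groups overlap in all 3 sets, with labelled-sufficient replicate 1 highest for the antiviral genes (0.26) and labelled-sufficient replicate 3 highest for the GTPases (0.16).

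The members with and without an ISRE core in the promoter window had nearly the same median change. The 14 measured members with the core had a median log2 change of -0.06 of which 2 were lower and another 2 higher before adjustment (p under 0.05), and the 11 without it in the promoter table a median of -0.06 with 3 lower and 1 higher. Over all tested genes in the promoter table the medians were 0.01 with the core (380 genes) and 0.01 without it (9508 genes). By the same unadjusted rule 5.26% of the genes with the core were lower and 7.63% higher. Without the core the shares were 5.99% and 8.65%. Ifitm2, which rose, and Irgm2, which fell, both held a core.

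Other genes of the interferon pathway, a list of 67 of which 53 were measured, held 1 that rose and 6 that fell at an adjusted p under 0.05 by limma (the share of all genes was 1.44% higher and 0.766% lower). The list was chosen with earlier results of these data known, so its counts beside that share are no test of the pathway. Among ligands and receptors 2 of 9 fell. Ifng, the gene of interferon gamma, read 6.40, 7.02 and 6.84 in the labelled-deficient arrays, against 7.85, 7.81 and 7.54 in the labelled-sufficient arrays, a 1.97-fold difference (-0.98 ± 0.15, SE, adjusted p = 0.0118 by limma). Ifng was lowest in labelled-deficient replicate 1, where 5 of the 7 GTPases were lowest, and in labelled-sufficient replicate 3, where all 7 were highest. Ifnar1, a chain of the type I interferon receptor, read 8.45, 8.59 and 8.46 in the labelled-deficient arrays, against 8.76, 8.76 and 8.78, and fell by 0.27 on the log2 scale (adjusted p = 0.0398 by limma). Its partner chain Ifnar2 had a change of 0.18 ± 0.06 (SE) that did not pass (adjusted p = 0.151 by limma), and Ifna1, Ifna2, Ifna4 and Ifnb1 were dim.

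Among the signalling genes 1 of 12 fell. Jak1, the kinase used by both interferon receptors, read 11.29, 11.27 and 11.15 in the labelled-deficient arrays, against 11.44, 11.50 and 11.49 in the labelled-sufficient arrays, without overlap (-0.24 ± 0.05, SE, adjusted p = 0.033 by limma). Stat2 and Irf9, transcription factors of the type I route named here after their values were seen, had changes of -0.05 ± 0.08 and -0.18 ± 0.06 (SE), neither past the threshold. Among sensors and adaptors Tlr7, the endosomal receptor for single-stranded RNA that drives type I interferon, had the widest gap of the pathway on the brightest probe set. It read 5.71, 5.46 and 5.50 in the labelled-deficient arrays, against 7.26, 6.91 and 7.05, and fell by 1.52 on the log2 scale (adjusted p = 0.00037 by limma). With the mean of its probe sets the change was -0.88, smaller in size than those of Cxcl10 (1.03) and Ifng (-0.98).

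Among 25 further targets Cxcl10 rose while Samhd1 and Helz2 fell. Cxcl10, a chemokine induced by interferon gamma, read 8.75, 8.67 and 8.52 in the labelled-deficient arrays, against 7.89, 7.36 and 7.59 in the labelled-sufficient arrays (1.03 ± 0.12, SE, adjusted p = 0.00336 by limma), while 17 of the 24 antiviral genes had negative changes. Samhd1, which depletes the nucleotides that retroviruses need, read 11.58, 11.50 and 11.53, against 11.83, 11.71 and 11.86 (-0.26 ± 0.05, SE, adjusted p = 0.0245 by limma). Helz2, a helicase coactivator, read 10.24, 10.19 and 10.16, against 10.51, 10.42 and 10.36 (-0.23 ± 0.05, SE, adjusted p = 0.0448 by limma). With each array left out in turn Tlr7 and Cxcl10 passed in 6 of 6 fits and Ifng in 5, the exception being without labelled-sufficient replicate 2 (adjusted p = 0.0736 by limma). Jak1 and Samhd1 passed in 2 of 6, Helz2 in 1 and Ifnar1 in 0. Samhd1 also lost its call with the mean of its probe sets (adjusted p = 0.102 by limma), where its change was -0.27. Jak1 lost its call without labelled-deficient replicates 2 or 3 or labelled-sufficient replicates 2 or 3, Samhd1 without labelled-deficient replicates 2 or 3 or labelled-sufficient replicates 1 or 3, and Helz2 in all but the fit without labelled-sufficient replicate 3, with adjusted p up to 0.159, 0.118 and 0.173 by limma and 0.168 for Ifnar1.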

How the data were processed

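Per the labels' protocols, biotin-labelled cRNA was prepared from 6 ug of Trizol-extracted RNA. The authors deposited log2 intensities made by RMA, a method that corrects background, normalizes by quantiles and summarises probes, as named without a version in the submitters' processing notes; the log2 scale was read from the values. Scanner files, hybridisation dates and batches were not given in the sources used here, so background and saturation were not read; precision is set by 3 arrays a group.

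Of 22690 probe sets 20393 were annotated to 1 gene, 691 to several and 1606 were not listed. Entrez identifiers of 20364 matched RefSeq (GRCm38.p6), and 0 symbols changed. The probe set with the highest mean stood for each of 12394 genes, with no filter on dim genes. Groups came from the array titles. limma 3.58.1 in R 4.3.3 (lmFit, eBayes with an intensity trend) was fitted to all genes, two-sided, with Benjamini-Hochberg adjustment over all genes. An exact permutation of 3 against 3 arrays cannot go below p = 0.1, so calls rest on limma's shared variance. On simulated data with these genes, 50.7% of changes of 0.5 (log2) were called and 94% of changes of 1. The changed genes were drawn from all 12394 and varied independently of each other. The antiviral members spread more (median SDs of 0.13 and 0.20, against 0.09 and 0.09 over all genes), and their recovery was not tested. Errors are SDs over 3 arrays or limma's standard errors. The sources used here do not say that replicate numbers pair mice. Figures used matplotlib 3.10.9.

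The members, roles, other lists and naming rule were chosen with earlier results of these data known. The rule named every member past the threshold or at an unadjusted p under 0.05, the 7 GTPases, the 2 members of each role with the smallest p, and pathway genes past the threshold; other members are given by value or range.

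Alternatives were a replicate block, no intensity trend, robust variance, dim genes left out (below 5.55), renewed quantile normalization, median centring, array weights, other probe set choices, a threshold of 0.1, other scores, and each array left out.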

Additional observations from a re-analysis of the deposited data

How the results depend on the processing

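The count of 2 members past the threshold was unchanged with robust variance, without dim genes, with renewed quantile normalization, median centring, the mean of all probe sets, or without probe sets named as able to read other transcripts, and in each case the genes were Ifitm2 and Irgm2; Ifitm2 stays above the dim cut only through its labelled-deficient values, so that filter says nothing about its call. It was 0 without the intensity trend (adjusted p = 0.0743 for Ifitm2 and 0.156 for Irgm2; 10 members had an unadjusted p under 0.05), 5 with array quality weights (Ifitm2 higher; Irgm2, Adar, Oas2 and Usp18 lower) and 4 at a threshold of 0.1 (with Adar and Oasl1). With 1 array left out it ranged from 0 (without labelled-deficient replicate 2 or 3 or labelled-sufficient replicate 2) to 2. Usp18 passed without labelled-deficient replicate 1, Lgals3bp without labelled-sufficient replicate 1 and Oasl1 without labelled-sufficient replicate 3. The members at an unadjusted p under 0.05 numbered 9 to 14. With the replicate number as a block 7 members passed (Ifitm2 higher; Irgm2, Ifit1, Ifit3, Oas2, Oasl1 and Usp18 lower) and 17 had an unadjusted p under 0.05. The sources used here do not say whether the numbers pair mice. Deviations of same-numbered arrays correlated at 0.04, -0.02 and 0.07. Replicates 1 and 3 of each group correlated best with their own number in the other group, and replicate 2 did not. Whether same-numbered arrays share an effect was not tested. The pathway count fell to 2 (Tlr7 and Cxcl10) without the trend, was 6 with the mean of probe sets (without Samhd1) and ranged from 3 to 5 with 1 array left out. Over all genes 274 passed, against 54 without the trend, 585 with array weights, 525 at 0.1, 368 with the block, and 62 (without labelled-deficient or labelled-sufficient replicate 2) to 270 with 1 array left out. The score over all members differed by -0.10, from -0.16 to -0.03 with 1 array left out, and by -0.37 with genes scaled to unit SD. The antiviral minus GTPase contrast ranged from -0.1621 to 0.0644 with 1 array left out and turned to 0.0484 with genes scaled to unit SD. Near 0, Gbp2 turned to 0.0181 with array weights and Zbp1 to 0.0319 with the mean of probe sets, and with 1 array left out Gbp2 (-0.0822 to 0.0418), Ifih1 (-0.0131 to 0.1564), Iigp1 (-0.0537 to 0.0973), Rtp4 (-0.2597 to 0.0016) and Zbp1 (-0.0984 to 0.0179) changed sign. The cause of these moves was not tested.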
